A study of Mus musculus with 6 samples.

Results

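Trimethylation of histone H3 at lysine 4 (H3K4me3) was examined over the 39 protein-coding genes of the Hoxa, Hoxb, Hoxc and Hoxd clusters, taken from the 21883 protein-coding genes of a RefSeq table of the GRCm38.p6 mouse genome by symbol alone. These were 11 Hoxa, 10 Hoxb, 9 Hoxc and 9 Hoxd genes. The 2 libraries came from CD8+ lymphocytes that had infiltrated E0771 tumours, a mammary tumour line, in C57BL/6 mice. One library was from mice with Cre-mediated deletion of Atg5, called Atg5 KO, and the other from wild-type mice, called Atg5 WT. Atg5 encodes a protein needed to form autophagosomes. The age of the animals, the driver of Cre and the number of mice behind each library are not given in the labels. Each genotype had 1 H3K4me3 library, so no difference below has a replicate check or a test, and the values describe these libraries. The measurements are regions called by the authors with MACS2 in each library, counted over each gene body and 2.5 kb on either side, which is called the gene window. The covered length is the number of bp of that window under regions.

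Hox genes encode homeodomain transcription factors that specify position along the body axis, and their order on the chromosome follows the order in which they are used along that axis. Members at the same place in different clusters form paralog groups, of which group 1 acts furthest forward and group 13 furthest back. Trithorax enzymes, among them Kmt2a, place H3K4me3 on clusters in use, and Polycomb complexes keep the others silent. In blood, Hoxa and Hoxb genes are known from stem and progenitor cells, and fibroblasts and epithelia keep Hox patterns that reflect where in the body they arose.

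Atg5 itself had 4257 bp in its window in Atg5 KO and 2926 bp in Atg5 WT, which does not check the deletion, since a mark at the promoter can remain. The marker genes of the labelled cell type stood apart between the libraries. All 15 T cell marker genes had a region in Atg5 KO, against 11 of 15 in Atg5 WT, and the summed covered length was 229288 bp in Atg5 KO and 31177 bp in Atg5 WT. Cd8a, Cd3e, Lat and Thy1 were at 0 in Atg5 WT. Other cell types' markers carried regions as well. Over all protein-coding genes, 70.7% had a region in Atg5 KO and 71.0% in Atg5 WT. Counts of markers with a region therefore do not by themselves show that such cells were present. All 13 myeloid markers had a region in each list, with 47023 bp in Atg5 KO and 51892 bp in Atg5 WT. Epithelial and mammary tumour markers had a region at 10 of 12 genes in Atg5 KO and 9 of 12 in Atg5 WT, with sums of 27194 bp in Atg5 KO and 27227 bp in Atg5 WT. Krt5 and Krt14 were at 0 in both lists, and Cldn4 in Atg5 WT. Fibroblast and endothelial markers had a region at 12 of 15 genes in each list, with 48435 bp in Atg5 KO and 57920 bp in Atg5 WT. Lum and Tek were at 0 in both lists, Tie1 in Atg5 KO and Fap in Atg5 WT. B cell markers had a region at 5 of 6 genes in Atg5 KO and 4 of 6 in Atg5 WT, with sums of 13663 bp in Atg5 KO and 9020 bp in Atg5 WT. Ms4a1 was at 0 in both lists. The part that other cells may have in the differences at Hox genes was not tested. In a mixed sample, fewer cells that carry the mark and less of the mark in each cell cannot be told apart.

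Most Hox gene windows held a region in both lists, as did most windows of all protein-coding genes. A region lay in the window of 31 of 39 genes in Atg5 KO, where the share over all protein-coding genes was 70.7%, and of 31 of 39 in Atg5 WT, where it was 71.0%. Both lists had a region at 30 genes (76.9%, against 68.4% of all genes). Hoxb13 had a region in Atg5 KO alone, a class that holds 2.30% of all genes, and Hoxc5 in Atg5 WT alone, a class that holds 2.65%. No region was found in either list at Hoxa5, Hoxa6, Hoxc11, Hoxc12, Hoxc13, Hoxd1 and Hoxd4, which makes 7 of 39 genes (17.9%, against 26.7% of all genes). Hox windows are short, with a median of 8737 bp against 22170 bp for all genes. Regions covered a median of 21.3% of the Hox windows in Atg5 KO and 16.3% in Atg5 WT, against medians over all genes of 5.87% in Atg5 KO and 5.58% in Atg5 WT. In bp the Hox medians were the lower. They were 1993 bp against 2223 bp over all genes in Atg5 KO, and 1806 bp against 2240 bp in Atg5 WT.

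The clusters differed in direction. In the Hoxa and Hoxb clusters, the covered length was longer in Atg5 KO at 18 of 21 genes and shorter at 1, Hoxa13, by 39 bp. In the Hoxc and Hoxd clusters it was longer at 1 of 18 genes, Hoxc9, and shorter at 12. Over all protein-coding genes, 34.7% were longer in Atg5 KO by any amount and 38.5% were shorter. At a difference of at least 500 bp, 10 of the 21 Hoxa and Hoxb genes were longer in Atg5 KO and none shorter. Of the 18 Hoxc and Hoxd genes, 1 was longer and 7 were shorter. Taken singly, Hoxa had 5 longer and 0 shorter, Hoxb 5 and 0, Hoxc 1 and 3, and Hoxd 0 and 4. Clusters that leaned the same way are joined here, so the joint counts add no support to the split. A difference of at least 500 bp was passed by 18.5% of all genes towards Atg5 KO and by 16.6% towards Atg5 WT. Over the 39 genes together, 11 were longer by 500 bp (28.2%) and 7 shorter (17.9%), and the median difference was 0 bp, as it was over all genes. The median was 480 bp in the Hoxa and Hoxb genes and −332.5 bp in the Hoxc and Hoxd genes. Neighbouring windows overlap, so one region can count for more than 1 gene. Of 63 cluster regions in Atg5 KO, 16 lay in several gene windows, as did 18 of 50 in Atg5 WT.

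**Figure D1:**
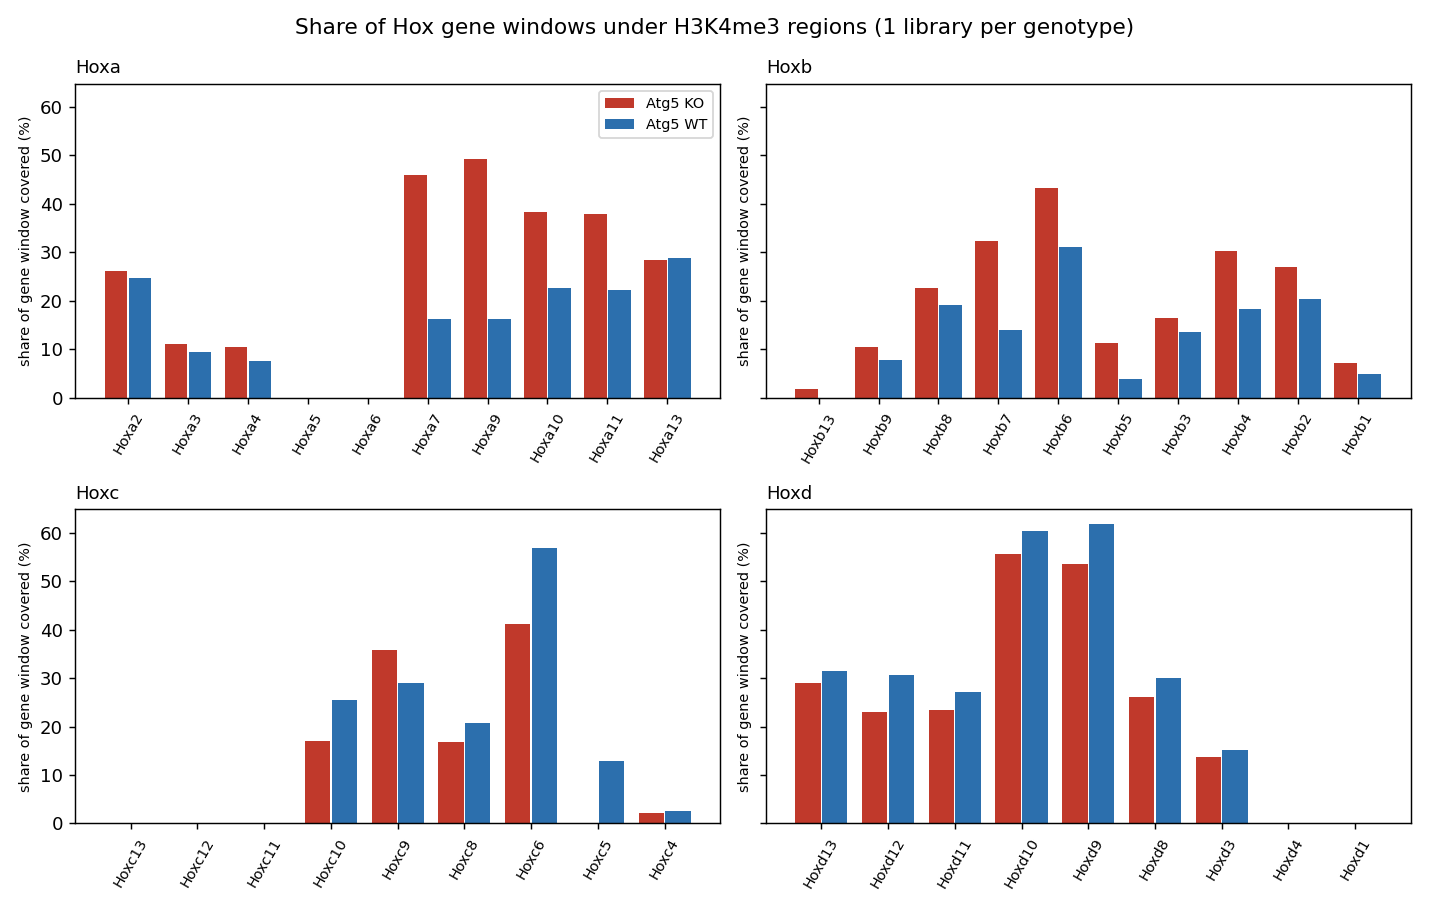
Share of the window of each Hox gene shown (vertical axis, %) under H3K4me3 regions in Atg5 KO (red, left bar) and Atg5 WT (blue, right bar), with genes in chromosome order in a panel for each cluster and 1 library per genotype. Red bars are the taller at every covered Hoxb gene, and blue bars at every covered Hoxd gene, with Hoxd9 at 53.5% in Atg5 KO and 61.8% in Atg5 WT.

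**Figure D2:**
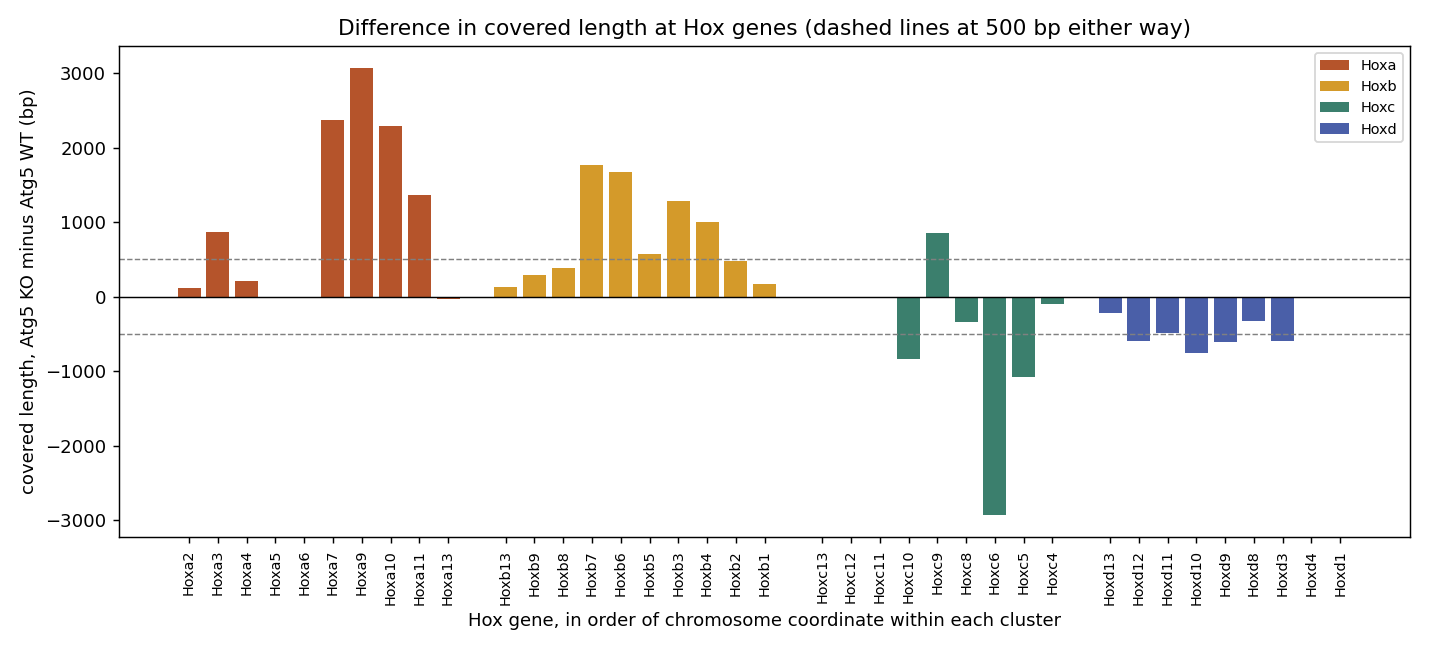
Covered length in Atg5 KO minus Atg5 WT (vertical axis, bp) at each Hox gene shown, coloured by cluster, with dashed lines at 500 bp either way. The bars run from 3064 bp at Hoxa9 to −2927 bp at Hoxc6, and most Hoxa and Hoxb bars stand above 0 while most Hoxc and Hoxd bars hang below it.

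The Hoxa cluster had the largest difference of the 4. Its window, on chromosome 6, ran over 111 kb and held 19 regions with 25394 bp in Atg5 KO and 11 regions with 14199 bp in Atg5 WT. The share of the window was 23.0% in Atg5 KO and 12.8% in Atg5 WT. Every Atg5 WT region there met an Atg5 KO region, but 8 Atg5 KO regions met none of Atg5 WT. Bases under regions of both lists came to 13249 bp, with 12145 bp under Atg5 KO alone and 950 bp under Atg5 WT alone. Among the 8 unmatched regions, one of 610 bp lay within Hoxa2, one of 512 bp within Hoxa9 and a shorter one within Hoxa10. One of 1583 bp began in Hoxa11 and ran past its start. Others measured 1102 bp by Mir196b, 601 bp in Hoxa11os and 1255 bp between Hoxa11 and Hoxa13.

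Within Hoxa, the differences over 1000 bp were those of Hoxa7, Hoxa9, Hoxa10 and Hoxa11. Hoxa9, which drives self-renewal of blood progenitors and acts in leukaemia, had 4563 bp over 4 regions in Atg5 KO and 1499 bp over 2 regions in Atg5 WT. Its own body (52223097 to 52227370) held regions of 512 and 1402 bp in Atg5 KO, against 1 region of 291 bp in Atg5 WT. Hoxa7, which like Hoxa9 is a target of Kmt2a fusion proteins in leukaemia, had 3663 bp in Atg5 KO and 1297 bp in Atg5 WT. The region inside Hoxa7 was 2013 bp wide in Atg5 KO and 924 bp wide in Atg5 WT. Between Hoxa7 and Hoxa9 lay a region of 2303 bp in Atg5 KO, against 1208 bp in Atg5 WT.

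Hoxa10, a regulator of the uterus and of blood progenitors, had 5617 bp in Atg5 KO and 3324 bp in Atg5 WT. Its widest region, at the 5′ end of the gene, was shared by both lists, 2442 bp wide in Atg5 KO and 2551 bp in Atg5 WT. Hoxa11, which patterns the forearm and the kidney, had 3301 bp in Atg5 KO and 1941 bp in Atg5 WT. Both genes turned direction when each list was limited to its 20000 regions with the highest −log10 q, where Hoxa10 stood at −109 bp and Hoxa11 at −223 bp. There the Hoxa9 difference was 596 bp instead of 3064 bp, and that of Hoxa3, outside this stretch, was 3066 bp instead of 866 bp. The Atg5 KO regions of the Hoxa10 and Hoxa11 windows that dropped out there had authors' folds from 3.87 to 6.36.

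Elsewhere in the Hoxa cluster the lists were more alike. Hoxa13, needed for digits and the genital tubercle, had 1993 bp in Atg5 KO and 2032 bp in Atg5 WT, under a region beyond the gene that reaches the noncoding gene Hottip. With 5 kb on either side the Hoxa13 difference was 118 bp. Hoxa2, which patterns the second pharyngeal arch, had 1945 bp in Atg5 KO and 1833 bp in Atg5 WT, and its difference turned to −498 bp both at a −log10 q of at least 10 and with 20000 regions per list. Its shared region, beyond its 3′ end, was 1335 bp wide in Atg5 KO and 1833 bp wide in Atg5 WT. Hoxa3, which is needed for the thymus and parathyroid, had 5453 bp in Atg5 KO and 4587 bp in Atg5 WT over a window of 49009 bp. Hoxa4 lies inside the annotated span of Hoxa3 and had 741 bp in Atg5 KO and 528 bp in Atg5 WT. Hoxa5, a gene of lung development, and Hoxa6 lie in that span too and had 0 bp in both lists.

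**Figure D3:**
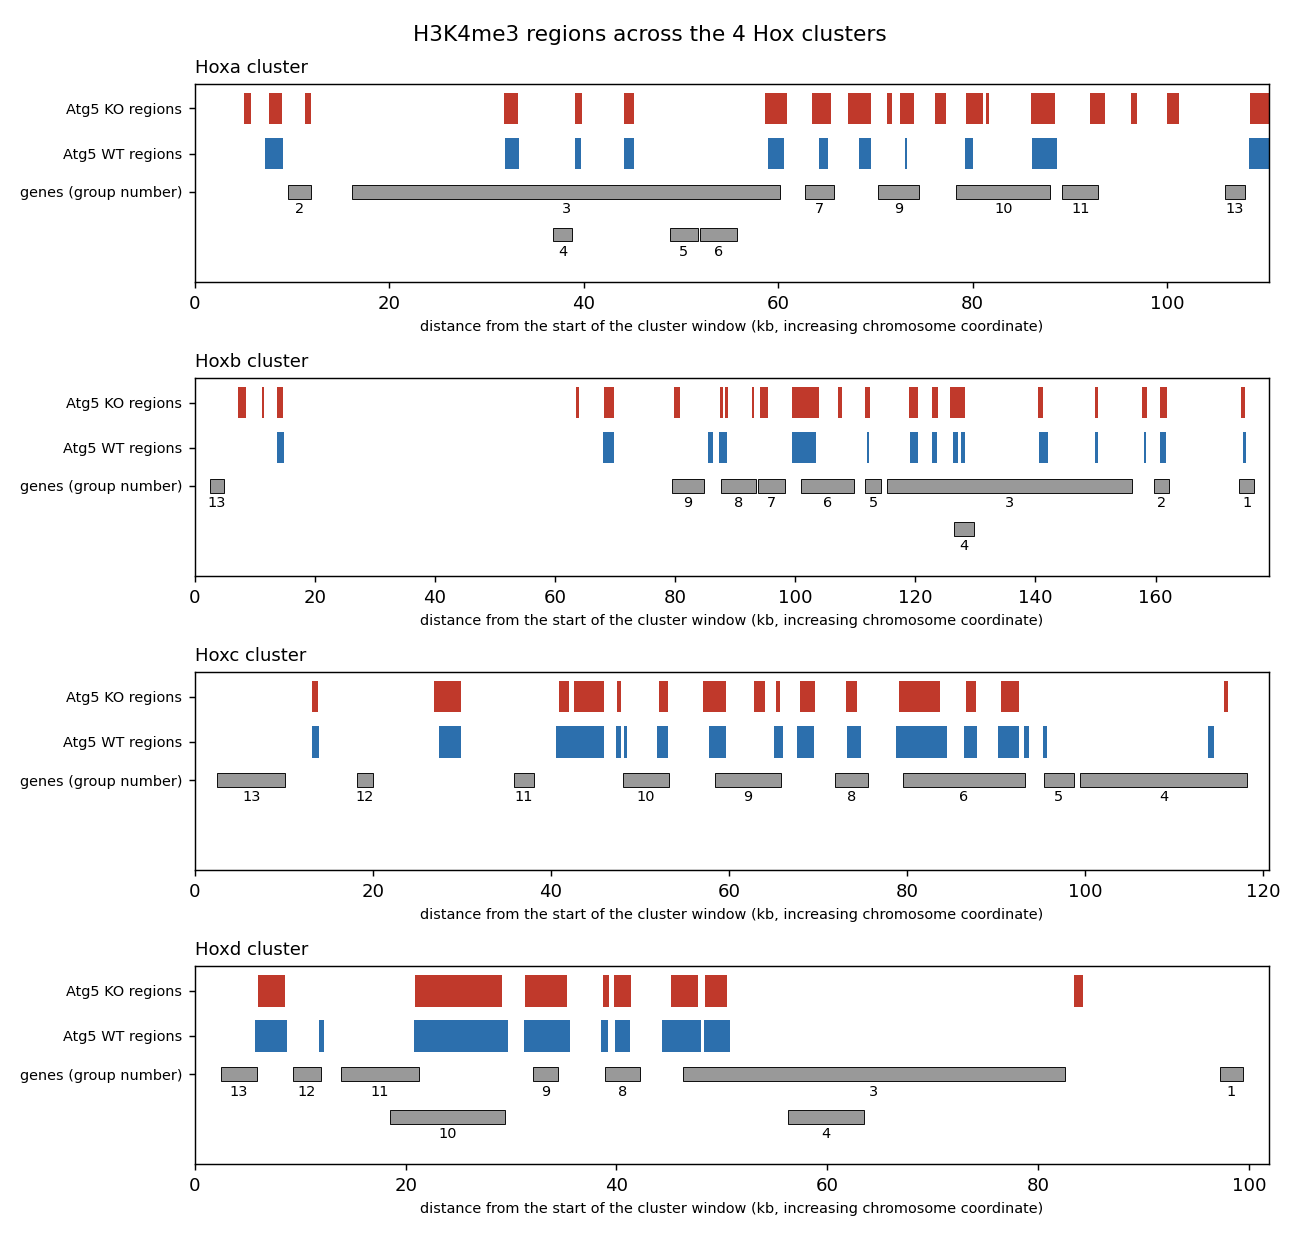
Regions of Atg5 KO (red, upper row) and Atg5 WT (blue, middle row) over the windows of the 4 Hox clusters, with gene spans in grey labelled by paralog group; the horizontal axis is distance from the start of the window in kb. Between groups 7 and 11 of Hoxa and between groups 9 and 6 of Hoxb, red blocks stand where no blue block does, while the blocks of Hoxd line up in both rows except for 1 in each.

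Every Hoxb gene had a longer covered length in Atg5 KO as measured here, though Hoxb8 and Hoxb9 turned direction under other settings. Its window of 179 kb (chromosome 11, 96191816 to 96370754) held 21 regions with 23814 bp in Atg5 KO (13.3%) and 15 regions with 16958 bp in Atg5 WT (9.48%). Of these, 7 Atg5 KO regions met no Atg5 WT region and 1 Atg5 WT region met no Atg5 KO region. The 7 comprised 1432 and 373 bp by Hoxb13 in Gm30134, 485 bp in Gm53, 1083 bp in Hoxb9, 309 bp in Hoxb8, 1350 bp in Hoxb7 and 717 bp in Hoxb6. Hoxb13, a gene of the tail and the prostate, lies far from the others at the posterior end. It had 123 bp at the edge of its window in Atg5 KO and 0 bp in Atg5 WT, so only the rim of a region that lies outside the gene was counted. Between Hoxb13 and Hoxb9 both lists left a long stretch without a region, of 48820 bp in Atg5 KO and 53242 bp in Atg5 WT.

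The middle of the Hoxb cluster carried the larger differences. Hoxb7 had 3101 bp in Atg5 KO and 1341 bp in Atg5 WT, and the only region inside its body was 1350 bp wide in Atg5 KO, with none in Atg5 WT. Hoxb6 had 5946 bp in Atg5 KO and 4269 bp in Atg5 WT. Its main region was the widest of the cluster in both lists, 4563 bp in Atg5 KO and 3977 bp in Atg5 WT. Hoxb4, which expands blood stem cells when overexpressed, had 2539 bp under 1 region in Atg5 KO and 1533 bp under 2 regions in Atg5 WT. Hoxb3, whose span encloses Hoxb4, had 7497 bp in Atg5 KO and 6210 bp in Atg5 WT. Hoxb5, which marks long-term blood stem cells in the mouse, had 860 bp in Atg5 KO and 292 bp in Atg5 WT.

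The remaining Hoxb genes differed by less than 500 bp. Hoxb2 had 1988 bp in Atg5 KO and 1508 bp in Atg5 WT. Hoxb1, a gene of the hindbrain, had 532 bp in Atg5 KO and 369 bp in Atg5 WT. Hoxb8, which blocks the maturation of myeloid progenitors when overexpressed, had 2475 bp in Atg5 KO and 2092 bp in Atg5 WT, and its difference turned to −31 bp when regions under a −log10 q of 5 were dropped. For Hoxb9 the values were 1083 bp in Atg5 KO and 791 bp in Atg5 WT, and they came from different places. The Atg5 KO region lay inside the gene, and the Atg5 WT region lay between Hoxb9 and Hoxb8, with no overlap. With 5 kb on either side the Hoxb9 difference was −193 bp.

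In the Hoxc cluster the values leaned the other way. The window of 121 kb (chromosome 15, 102918631 to 103039356) held 15 regions with 24787 bp in Atg5 KO (20.5%) and 16 regions with 28659 bp in Atg5 WT (23.7%). Among the regions that met none of the other list, 2 were in Atg5 KO, at Hoxc9 and Hoxc4, and 4 in Atg5 WT, at Hoxc10, Hoxc6, Hoxc5 and Hoxc4. Hoxc6, a gene of the thoracic part of the embryo, had 7668 bp in Atg5 KO and 10595 bp in Atg5 WT. Its first region was 4561 bp wide in Atg5 KO and 5702 bp in Atg5 WT, and the Atg5 KO region lay wholly inside the Atg5 WT one. Hoxc5 had 0 bp in Atg5 KO and 1085 bp in Atg5 WT, under regions with authors' folds of 3.64 each in the Atg5 WT list. Hoxc4, which in mouse B cells activates the gene of the antibody-mutating enzyme AID, had 519 bp in Atg5 KO and 622 bp in Atg5 WT. Those regions of Hoxc4 did not overlap.

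Further back in Hoxc, Hoxc10, a gene of lumbar motor neurons, had 1725 bp in Atg5 KO and 2564 bp in Atg5 WT. At a −log10 q of at least 10 its difference turned to 122 bp more in Atg5 KO. Hoxc9, which represses forelimb motor neuron fate in the thoracic cord, had 4453 bp in Atg5 KO and 3600 bp in Atg5 WT. A region of 1265 bp inside Hoxc9 was in the Atg5 KO list alone. Hoxc8 had 1462 bp in Atg5 KO and 1806 bp in Atg5 WT. Hoxc11, Hoxc12 and Hoxc13, of which the last is needed for hair and nails, had 0 bp in both lists. Regions did lie between these genes. One between Hoxc11 and Hoxc10 was 5415 bp wide in Atg5 WT, with an authors' fold of 36.1 in that list, and was split in Atg5 KO into regions of 1132 and 3416 bp.

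The Hoxd cluster was the most alike in the 2 lists. Its window of 102 kb (chromosome 2, 74665725 to 74767642) held 8 regions in each list, with 22625 bp in Atg5 KO (22.2%) and 25016 bp in Atg5 WT (24.5%). Regions of both lists shared 82.0% of the bases that either covered, against 50.3% in Hoxa, 53.4% in Hoxb and 68.4% in Hoxc. Hoxd10, a gene of lumbar motor neurons, had 8797 bp in Atg5 KO and 9550 bp in Atg5 WT. It lay under the widest region of all 4 clusters, 8238 bp in Atg5 KO and 8848 bp in Atg5 WT, wider than 99.5% of the regions in Atg5 KO and 99.9% of those in Atg5 WT. Hoxd9 had 3985 bp in Atg5 KO and 4598 bp in Atg5 WT. Hoxd11, which acts with Hoxa11 in the forearm, had 2905 bp in Atg5 KO and 3389 bp in Atg5 WT.

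Hoxd13 and Hoxd12, which shape the digits, share a region that lies between them and in Atg5 WT reaches into the end of Hoxd13. Hoxd13 had 2423 bp in Atg5 KO and 2641 bp in Atg5 WT. Hoxd12 had 1764 bp in Atg5 KO and 2355 bp in Atg5 WT, where a second, weak region at its 3′ end added to the count. Hoxd8 had 2174 bp in Atg5 KO and 2495 bp in Atg5 WT, and with 1 kb on either side its difference was 94 bp. Hoxd3 had 5632 bp in Atg5 KO and 6233 bp in Atg5 WT, of which 4718 bp in Atg5 KO and all in Atg5 WT lay towards the Hoxd8 side of its long span. From there to Hoxd1 the cluster was nearly bare. The longest stretch without a region was 32869 bp in Atg5 KO, which ended at a region in the noncoding gene Haglr, and 51109 bp in Atg5 WT, which ran to the end of the window. Hoxd4 and Hoxd1 had 0 bp in both lists.

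Regions that met exactly 1 region of the other list were compared by width. Across the genome there were 32131 such pairs, of which 33.7% were wider in Atg5 KO and 66.2% narrower, with a median difference of −142 bp. Hoxc and Hoxd followed that pattern, since 9 of 11 Hoxc pairs and 6 of 7 Hoxd pairs were narrower in Atg5 KO, with medians of −357 and −374 bp. In Hoxa 8 of 11 pairs were wider in Atg5 KO, with a median of 213 bp, and in Hoxb 7 of 11, with a median of 163 bp. A narrower region in Atg5 KO was thus the common case over the whole genome.

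By paralog group, the differences did not follow the order from front to back. Group 7, made of Hoxa7 and Hoxb7, had the largest gap in mean share covered, with 39.3% in Atg5 KO and 15.2% in Atg5 WT. The 4 genes of group 9 averaged 37.3% in Atg5 KO and 28.7% in Atg5 WT, although Hoxd9 went against the other three. Group 10 averaged 37.0% in Atg5 KO and 36.1% in Atg5 WT, and within it Hoxa10 was longer in Atg5 KO while Hoxc10 and Hoxd10 were shorter. Group 5 was the least covered, with 3.77% in Atg5 KO and 5.57% in Atg5 WT. Groups 1 to 8 held 7 genes longer by 500 bp in Atg5 KO and 3 shorter among 23. Groups 9 to 13, the posterior class, held 4 longer and 4 shorter among 16. Over all genes these shares were 18.5% longer and 16.6% shorter.

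Annotated starts were known for 22 of the 39 genes, with 24 starts in all, from RefSeq promoter sequences of the same build. All Hoxa starts in that set lie on the minus strand and those of the other clusters on the plus strand. The start window runs from 250 bp before a start to 50 bp after it. A region touched it at 10 of 24 starts in Atg5 KO, against 58.6% of 21262 starts of protein-coding genes, and at 7 of 24 in Atg5 WT, against 56.0%. Both lists did so at 7 starts, those of Hoxa3, Hoxb4, Hoxd3, Hoxd8, Hoxd9, Hoxd10 and the upstream start of Hoxa10, where the share over all starts was 54.7%. Hoxa2, Hoxa11 and Hoxc4 were touched in Atg5 KO alone (3 of 24, against 3.86% of all starts), and none in Atg5 WT alone (against 1.29%). At the other 14 starts neither list had a region (against 40.1% of all starts). Of those, the starts of Hoxa7, Hoxa13, Hoxb1 and Hoxd12 had regions of both lists within 1 kb.

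Within 1 kb either side of the start, the covered length was at least 500 bp longer in Atg5 KO at 4 of 24 starts, against 5.25% of all starts, and at least 500 bp shorter at none, against 1.53%. Hoxa11 had 1583 bp in Atg5 KO and 0 bp in Atg5 WT there. Hoxb4 had 1696 bp in Atg5 KO and 854 bp in Atg5 WT. Hoxa2 had 610 bp in Atg5 KO and 0 bp in Atg5 WT, and Hoxc4 had 519 bp in Atg5 KO and 0 bp in Atg5 WT. The Atg5 KO region at Hoxb4 had an authors' fold of 15.8, above 71.1% of that list. The one at Hoxa11 had a fold of 6.36, above 38.2%, the one at Hoxc4 had 4.42, above 15.9%, and the one at Hoxa2 had 4.15, above 11.7%.

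**Figure D4:**
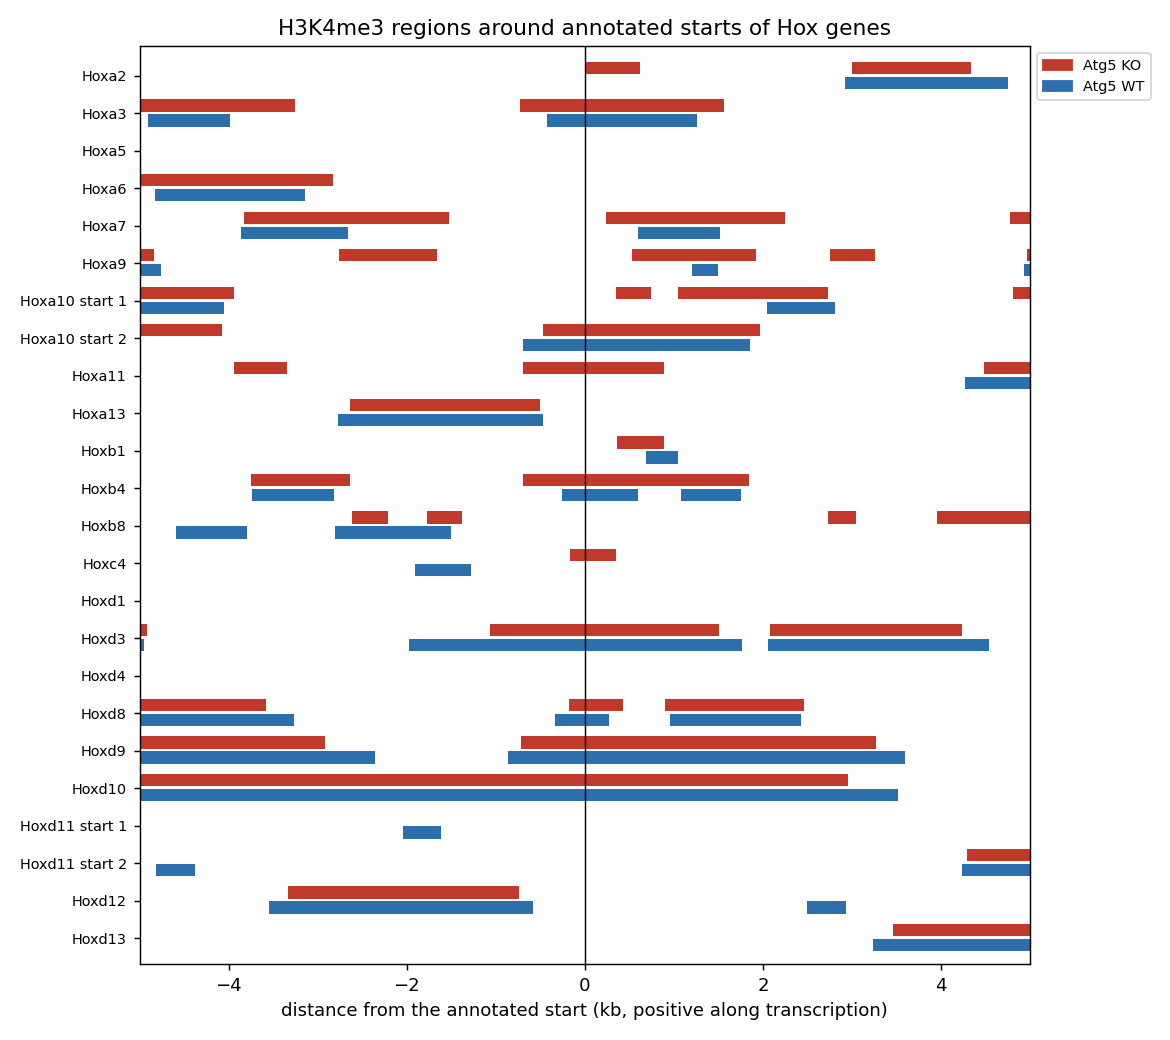
Regions of Atg5 KO (red, upper bar of each row) and Atg5 WT (blue, lower bar) around 24 annotated starts of 22 Hox genes; the horizontal axis is the distance from the start in kb, positive along transcription. Red bars cross the start line without a blue one at Hoxa11 and Hoxc4 and end just short of it at Hoxa2, both colours cross it at 7 starts, and many rows have regions only beside the line.

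Stretches of 250 bases just before the start are shown for 5 genes, as examples of a start touched in Atg5 KO alone (Hoxa11 and Hoxc4), in both lists (Hoxd9) and in neither (Hoxa13 and Hoxd13). They run 5′ to 3′ along the gene, from RefSeq GRCm38.p6, and capitals mark CG dinucleotides. The Hoxa11 stretch is chromosome 6, 52245811 to 52246060, minus strand. The Hoxc4 stretch is chromosome 15, 103034145 to 103034394, plus strand. The Hoxd9 stretch is chromosome 2, 74697513 to 74697762, plus strand. The Hoxa13 stretch is chromosome 6, 52260881 to 52261130, minus strand. The Hoxd13 stretch is chromosome 2, 74667975 to 74668224, plus strand.
Hoxa11: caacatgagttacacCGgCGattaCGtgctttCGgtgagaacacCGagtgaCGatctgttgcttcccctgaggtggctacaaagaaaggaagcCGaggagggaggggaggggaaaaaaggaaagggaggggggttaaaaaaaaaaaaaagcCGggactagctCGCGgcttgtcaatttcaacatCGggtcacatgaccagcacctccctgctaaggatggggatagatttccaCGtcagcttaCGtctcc
Hoxc4: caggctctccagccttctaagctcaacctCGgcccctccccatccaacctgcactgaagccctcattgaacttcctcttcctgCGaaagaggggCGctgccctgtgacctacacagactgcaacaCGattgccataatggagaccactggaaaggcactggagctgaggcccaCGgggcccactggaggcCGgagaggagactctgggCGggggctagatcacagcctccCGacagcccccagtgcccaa
Hoxd9: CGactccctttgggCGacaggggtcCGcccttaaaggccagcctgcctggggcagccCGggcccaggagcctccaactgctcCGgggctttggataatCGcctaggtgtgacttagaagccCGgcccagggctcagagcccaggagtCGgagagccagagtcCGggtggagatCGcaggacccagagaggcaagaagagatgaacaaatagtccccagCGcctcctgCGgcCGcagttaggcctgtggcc
Hoxa13: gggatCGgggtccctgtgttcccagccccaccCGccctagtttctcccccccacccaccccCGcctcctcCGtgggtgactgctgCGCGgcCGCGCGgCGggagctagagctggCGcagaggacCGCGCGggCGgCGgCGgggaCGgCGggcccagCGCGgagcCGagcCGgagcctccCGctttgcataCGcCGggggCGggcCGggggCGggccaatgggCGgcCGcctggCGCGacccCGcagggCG
Hoxd13: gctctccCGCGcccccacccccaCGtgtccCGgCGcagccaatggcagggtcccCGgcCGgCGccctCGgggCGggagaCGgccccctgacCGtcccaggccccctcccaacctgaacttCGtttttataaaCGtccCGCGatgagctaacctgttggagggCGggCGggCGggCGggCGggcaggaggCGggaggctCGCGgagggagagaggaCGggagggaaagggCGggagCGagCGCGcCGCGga

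All 250 of the Hoxa11 bases lay under a region in Atg5 KO and 0 in Atg5 WT. For Hoxc4 these numbers were 163 in Atg5 KO and 0 in Atg5 WT, and for Hoxd9 they were 250 in both lists. The Hoxa13 and Hoxd13 stretches had 0 in both lists. The number of CG dinucleotides did not order them in that way, with 13 in Hoxa11, 8 in Hoxc4, 13 in Hoxd9, 35 in Hoxa13 and 31 in Hoxd13. Over the full start windows the median was 14.5 CG dinucleotides in Hox genes and 13 over all starts. The motif TGATTNAT, a site that Hox proteins bind together with Pbx cofactors, was searched on both strands and found in 2 of 24 Hox start windows, at Hoxa2 and at the downstream start of Hoxd11, and in 2.75% of all start windows.

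The clusters also hold noncoding genes. In the 4 windows the table lists 27 long noncoding RNA genes, 6 microRNA genes and 1 pseudogene. Of these 34, 26 had a region in Atg5 KO and 24 in Atg5 WT, 14 were longer by 500 bp in Atg5 KO and 2 were shorter. Over all protein-coding genes, 70.7% had a region in Atg5 KO and 71.0% in Atg5 WT. Of the protein-coding genes, 18.5% were longer by 500 bp in Atg5 KO and 16.6% shorter. The shares over all noncoding genes were not computed. These genes overlap or adjoin Hox genes, so their regions are in large part those already described. Hoxa11os, the antisense partner of Hoxa11, had 2184 bp in Atg5 KO and 0 bp in Atg5 WT. Hottip, which in human cells recruits H3K4 methyltransferases to the posterior HOXA genes, had 2135 bp in Atg5 KO and 2306 bp in Atg5 WT. Hotairm1, an RNA of myeloid cells in humans, had 2366 bp in Atg5 KO and 1833 bp in Atg5 WT. Hotair, which lies between Hoxc12 and Hoxc11, had 3042 bp in Atg5 KO and 2512 bp in Atg5 WT. Haglr, in the Hoxd cluster, had 914 bp in Atg5 KO and 0 bp in Atg5 WT, and Hoxd3os1 had 4718 bp in Atg5 KO and 6233 bp in Atg5 WT.

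The microRNAs of the clusters fall into families by their seed, bases 2 to 8. The 5p seeds of the miR-10 and miR-196 families recur in different clusters, while the seed of miR-615-3p occurs in Hoxc alone. Mature sequences are from RefSeq (GRCm38.p6), 5′ to 3′, with the seed in capitals.
miR-10a-5p: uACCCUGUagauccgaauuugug
miR-10b-5p: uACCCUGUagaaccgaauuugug
miR-196a-5p: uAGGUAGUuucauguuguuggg
miR-196b-5p: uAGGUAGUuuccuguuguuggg
miR-615-3p: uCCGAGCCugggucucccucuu

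The miR-10 and miR-196 families are known to bind Hox transcripts. Mir10a, beside Hoxb4, had 3164 bp in its window in Atg5 KO and 2067 bp in Atg5 WT, whereas Mir10b, in the span of Hoxd4, had 0 bp in both lists. Mir196b, between Hoxa9 and Hoxa10, had 1557 bp in Atg5 KO and 540 bp in Atg5 WT. Mir196a-2, beside Hoxc10, had 1069 bp in Atg5 KO and 934 bp in Atg5 WT, and Mir196a-1, beside Hoxb9, had 0 bp in both lists. Mir615, in Hoxc5, had 0 bp in Atg5 KO and 474 bp in Atg5 WT. The genes of 1 seed family were covered unequally.

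Within each list the Hox regions were of middling strength. The authors' fold, the enrichment of a summit over the background that MACS2 estimates, had a median of 7.19 over the 63 cluster regions in Atg5 KO, against 8.02 over that whole list. In Atg5 WT the 50 cluster regions had a median of 8.45, against 7.81 over the whole list. Above the median of their own list were 29 of 63 regions in Atg5 KO and 26 of 50 in Atg5 WT. None of 63 in Atg5 KO and 2 of 50 in Atg5 WT were above the 90th percentile, which was 36.2 in Atg5 KO and 31.7 in Atg5 WT. Those 2 were the region between Hoxc11 and Hoxc10 and the first region of Hoxc6.

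Regions found in 1 list had lower median folds than shared ones. In Atg5 KO 45 of 63 cluster regions met an Atg5 WT region (71.4%, exact 95% interval 58.7 to 82.1%), against 76.0% of the whole list. In Atg5 WT 44 of 50 met an Atg5 KO region (88.0%, 75.7 to 95.5%), against 73.3% of the whole list. The intervals cover counting error only. The 18 regions of Atg5 KO that met none had a median fold of 5.39 and a median width of 717 bp, and the shared ones of Atg5 KO had 12.7 and 1424 bp. The 6 regions of Atg5 WT that met none had a median fold of 3.90 and a median width of 542.5 bp, and the shared ones of Atg5 WT had 11.1 and 1349.5 bp. The strongest of the 18 had a fold of 10.2 and lay in Hoxb7 and Hoxc9. Summits lay inside the span of a protein-coding gene at 42 of 63 regions in Atg5 KO and 34 of 50 in Atg5 WT. The same share over the whole of each list was not computed.

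**Figure D5:**
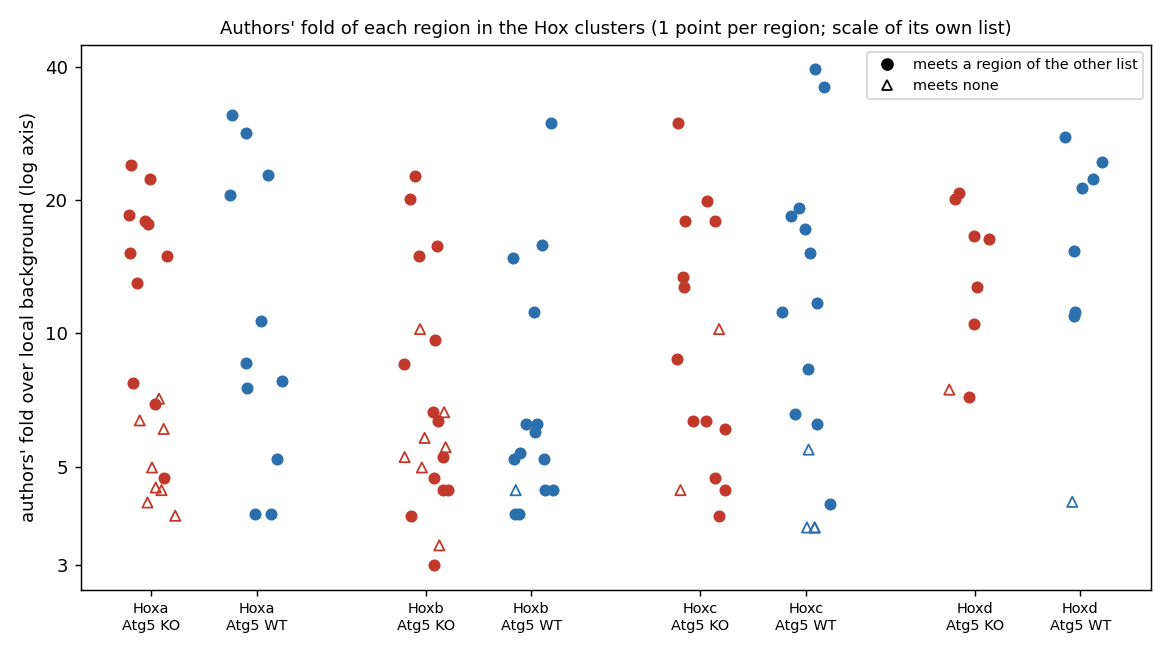
Authors' fold of each region (vertical log axis) in the 4 Hox clusters, with Atg5 KO (red) left of Atg5 WT (blue); filled circles meet a region of the other list and open triangles meet none, and each fold is on the scale of its own list. Triangles sit low, with 8 in Hoxa and 7 in Hoxb of Atg5 KO, and the highest points are 39.5 and 36.1 in Hoxc of Atg5 WT.

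The 2 nearest protein-coding genes on either side of each cluster were measured in the same way. Of these 16, 2 were longer by 500 bp in Atg5 KO, against 18.5% of all genes, and 5 shorter, against 16.6%. The median was −227 bp, against 0 bp over all genes. Skap1, an adaptor of T cell receptor signalling and one of the 15 T cell markers, lies 96316 bp beyond Hoxb1 and had 11784 bp in Atg5 KO and 4891 bp in Atg5 WT. Its relative Skap2, at the lower-coordinate side of Hoxa, had 4606 bp in Atg5 KO and 5251 bp in Atg5 WT. Evx2, a homeobox gene next to Hoxd13, had 2086 bp in Atg5 KO and 1196 bp in Atg5 WT, and Evx1, beyond Hoxa13, had 0 bp in both lists. Skap1 and Evx2 are the 2 longer genes. Skap2 is among the 5 shorter, and the rest of those are not named here.

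Genes that act with or upon Hox genes had regions in both libraries, as did 68.4% of all protein-coding genes. All 11 genes of the TALE cofactors, the homeodomain partners of Hox proteins, had a region in each list, with 1 longer by 500 bp in Atg5 KO and 4 shorter. Pknox2 had 4537 bp in Atg5 KO and 8396 bp in Atg5 WT. Pknox1 had 3297 bp in Atg5 KO and 2513 bp in Atg5 WT. All 29 Polycomb genes had a region in each list, with 12 longer by 500 bp in Atg5 KO and 4 shorter. The largest difference in each direction was 24740 bp in Atg5 KO against 17823 bp in Atg5 WT at Bcor, and 3105 bp in Atg5 KO against 3781 bp in Atg5 WT at Rnf2, the ubiquitin ligase of Polycomb. All 18 trithorax genes had a region in each list, with 10 longer and 1 shorter. Kdm6a, which removes H3K27 methylation, had 13678 bp in Atg5 KO and 5792 bp in Atg5 WT, and Kmt2a had 7815 bp in Atg5 KO and 3146 bp in Atg5 WT. Kdm6b had 13761 bp in Atg5 KO and 14465 bp in Atg5 WT. Over all genes 18.5% were longer by 500 bp in Atg5 KO and 16.6% shorter. Each list's part in the Hox values was not tested.

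Caudal and ParaHox genes, evolutionary relatives that act upstream or beside Hox genes in the gut and trunk, had a region at 3 of 6 in Atg5 KO, against 70.7% of all genes, and at 5 of 6 in Atg5 WT, against 71.0%. Gsx1 had 2873 bp in Atg5 KO and 632 bp in Atg5 WT, and Cdx2 had 2640 bp in Atg5 KO and 2364 bp in Atg5 WT. Cdx1 had 0 bp in Atg5 KO and 699 bp in Atg5 WT, and Pdx1 had 0 bp in Atg5 KO and 552 bp in Atg5 WT. Cdx4 was at 0 in both lists. Among 42 other homeobox regulators, 32 had a region in Atg5 KO and 28 in Atg5 WT. Of the 42, 15 were longer by 500 bp in Atg5 KO, against 18.5% of all genes, and 7 shorter, against 16.6%. Their median was 0 bp. Satb1, a chromatin organiser of T cells, had 32972 bp in Atg5 KO and 1233 bp in Atg5 WT. Prrx1, a factor of mesenchyme, had 5792 bp in Atg5 KO and 10108 bp in Atg5 WT.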

How the data were processed

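Chromatin was cut with micrococcal nuclease before immunoprecipitation, per the labels' protocols. MACS2 and the build GRCm38 (mm10) are named in the submitters' processing notes. Which aligner, MACS2 settings and control were used is not given in the sources used here. H3K27me3 and input libraries are not analysed here. The deposited lists give regions, a fold, which is a ratio of summit signal to estimated background, and −log10 p and −log10 q values, of which the lowest −log10 q was 2.02 in Atg5 KO and 2.00 in Atg5 WT. The deposited score was not used. All of these are the authors' values, were not scaled between libraries and rank or filter regions within 1 list.

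After regions off the autosomes, X and Y were dropped, 46565 remained in Atg5 KO and 48546 in Atg5 WT, covering 73.1 Mb in Atg5 KO and 71.3 Mb in Atg5 WT. Depth is not stated in the lists, so region lengths may differ with depth. Gene spans, starts and sequences came from RefSeq GRCm38.p6. Covered length, overlap of at least 1 bp and exact (Clopper-Pearson) 95% intervals were computed with Python 3.11.15, NumPy 2.4.6, pandas 2.3.3 and SciPy 1.17.1, and the steps were checked on simulated intervals. A difference was counted at 500 bp. A few genes, 1 member among them, count in totals but are not reported here by name. Members and gene lists were chosen with earlier results of these data known. Named are otherwise all members and some of the neighbouring and noncoding genes. From each of the lists, up to 2 genes with the longest gain and 2 with the longest loss were named. Others were chosen after their values were seen. With 1 library per genotype no test was possible. Alternatives were stricter −log10 q (5 and 10), 20000 regions per list, flanks of 1 and 5 kb, a 50% reciprocal overlap and, added after seeing the data, counting at 250 or 1000 bp.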

Additional observations from a re-analysis of the deposited data

How the results depend on the processing

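No paired analysis was possible because each genotype has 1 library. The sign of the difference in covered length of each cluster, Atg5 KO minus Atg5 WT, was the same in the 5 settings tried, positive for Hoxa and Hoxb and negative for Hoxc and Hoxd. With 20000 regions per list the differences were 5528 bp for Hoxa, 2759 bp for Hoxb and −5024 bp for Hoxd, against 11195, 6856 and −2391 bp as reported. There Hoxa10 stood at −109 bp and Hoxa11 at −223 bp, and at a −log10 q of at least 10 Hoxc10 stood at 122 bp. The cause was not tested. Over these settings, 113 of 195 values of single genes stayed within 1.5 times the reported difference. That count includes values of genes at 0 bp in both lists. The others fell outside that range. Of the 195 values, 11 turned sign, 3 of them at genes that differed by at least 500 bp and 8 at genes that differed by less.

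Hox genes with a region in Atg5 KO alone were 2 at a −log10 q of at least 5, 2 at 10 and 4 with 20000 regions, and those in Atg5 WT alone were 0 at 5, 0 at 10 and 0 within 5 kb. The shares of all genes in these classes were not computed under those settings. Genes shorter by 500 bp in Atg5 KO, all in Hoxc and Hoxd, were 4 of 39 at a −log10 q of at least 10 and 4 of 39 within 1 kb. The share over all genes was 14.4% at each of these settings. In Hoxc and Hoxd 0 genes were longer at a −log10 q of at least 10, against 17.8% of all genes. Counted at 1000 bp, 2 were shorter and 0 longer in Hoxc and Hoxd, and the share over all genes at 1000 bp was not computed. Within 5 kb the median over all Hox genes was 118 bp, against 0 bp over all protein-coding genes. With a 50% reciprocal overlap, 52.4% of Atg5 KO and 66.0% of Atg5 WT cluster regions were shared. The share over all regions was not computed at that overlap. Depth is unknown, so weak regions found in 1 list may be below detection in the other.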
